A study of Mus musculus with 15 samples.

Results

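The 5 genes described are Mt1, Mt2 and Mt3, which encode metallothioneins, Mtf1, which encodes the metal-sensing transcription factor MTF-1, and Slc30a1, which encodes the plasma membrane zinc exporter ZnT1. They were chosen by gene symbol as every probe set that the array annotation assigns to 1 of these symbols alone. Each symbol had 1 probe set, so 5 of the 8251 genes with a probe set of their own, and 5 of the 12422 probe sets that are not controls, were members, and all 5 passed the filter on low signal. The cells were NIH 3T3, an immortal mouse fibroblast line, stably transfected with a plasmid whose insert is driven by a zinc-inducible metallothionein promoter. The insert was a human C/EBP alpha, beta, delta or epsilon cDNA, and vector cells carried the plasmid with no insert. Per the labels, transfectants were polyclonal, selected with G418 and screened by Western blot for C/EBP protein after zinc. Each group, called alpha, beta, delta, epsilon and vector, had 3 Affymetrix MG_74Av2 arrays. All 15 arrays came from cells given zinc sulphate for 16 h, vector cells included, so no array gives a level without zinc and the induction by the metal itself cannot be computed. The comparison is between lines under the same metal load. Whether the human cDNAs were expressed was not tested on these arrays.

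Metallothioneins are small cysteine-rich proteins that bind zinc, copper and cadmium and release zinc again. When free zinc rises, MTF-1 binds metal response elements in the promoters of Mt1, Mt2 and Slc30a1 and raises their transcription, so that the cell both buffers and expels the metal. Mt3 is a metallothionein of the brain that responds little to metals. The C/EBP proteins are leucine zipper transcription factors known for steering the differentiation of fat, liver and myeloid cells.

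The promoters of Mt2, Mt1 and Slc30a1 are shown because these are the genes MTF-1 is known to induce in mouse cells. Windows of 300 bases, from 250 before to 50 after the RefSeq start (build GRCm38.p6), were found for 5 of 5 members. All of these windows are on the plus strand. Mt4, Mt3, Mt2 and Mt1 follow each other on chromosome 8 among the protein-coding genes of that annotation. Capitals mark matches to the core of the metal response element, searched as TGCACNC or TGCGCNC on both strands.
Mt2, chr8:94172368-94172667: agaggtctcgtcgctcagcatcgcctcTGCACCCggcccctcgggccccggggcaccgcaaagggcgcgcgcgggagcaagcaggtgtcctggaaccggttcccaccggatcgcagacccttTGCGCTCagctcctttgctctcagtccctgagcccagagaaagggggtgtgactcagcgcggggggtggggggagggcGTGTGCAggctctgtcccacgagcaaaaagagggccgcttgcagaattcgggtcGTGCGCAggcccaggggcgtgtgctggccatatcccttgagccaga
Mt1, chr8:94178839-94179138: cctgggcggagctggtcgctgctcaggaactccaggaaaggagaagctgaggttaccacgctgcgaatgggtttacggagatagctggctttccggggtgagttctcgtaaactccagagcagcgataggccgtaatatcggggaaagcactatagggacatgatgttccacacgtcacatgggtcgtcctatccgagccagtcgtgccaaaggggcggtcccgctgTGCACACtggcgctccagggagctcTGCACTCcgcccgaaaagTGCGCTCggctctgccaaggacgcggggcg
Slc30a1, chr1:191906531-191906830: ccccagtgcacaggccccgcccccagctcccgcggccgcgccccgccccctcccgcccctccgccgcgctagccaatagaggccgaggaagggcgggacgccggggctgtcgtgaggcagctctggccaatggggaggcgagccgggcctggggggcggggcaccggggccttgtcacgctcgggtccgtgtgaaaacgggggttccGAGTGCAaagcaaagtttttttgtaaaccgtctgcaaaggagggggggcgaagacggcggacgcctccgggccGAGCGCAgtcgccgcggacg
Mt2 held 4 matches, Mt1 held 3 and Slc30a1 held 2. The Mt3 window held 1 match and the Mtf1 window 0. Not all matches lay before the annotated start. Those beginning at base 3 and 21 in Mt1, 5 in Mt2, 31 in Slc30a1 and 28 in Mt3 lay after it. Matches outside the windows were not counted. Of all 32851 promoter windows of this length, 25.7% held at least 1 match and 1.97% held 3 or more. A C/EBP site pattern, searched as TTGCNNAA on both strands, was found once, in the Mt2 window, and in 10.8% of all windows. An antioxidant response element core, searched as TGACNNNGC on both strands, was found once in Mt2 and once in Slc30a1, and in 12.4% of all windows. A TATA box, searched as TATAAA on both strands, was found in no member window and in 13.6% of all windows. Sequence outside the windows was not searched, so this does not show that a member lacks a TATA box. A match is a run of letters and does not show that a factor binds there.

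Of all probe sets, 6963 exceeded the pooled median signal of 1092 units on at least 3 arrays and were tested. Deposited signals ran from 0.5 to 256544 units, and array medians from 992.25 to 1149.7. Of 9 fibroblast markers 8 passed the filter, and their summed level lay between 84970 and 184300 units on the 12 C/EBP arrays, against 105000 to 139500 in vector. Vim was the fibroblast marker that did not pass. Of the 8, Col3a1 rose 2.24-fold in beta and 2.19-fold in epsilon (adjusted p = 0.00159 and 0.00116), Col1a1 and Pdgfrb rose 1.69-fold and 2.03-fold in beta (0.0232 and 0.0310), and Thy1 fell in alpha (log2 -0.66, adjusted p = 0.0123). The part of these changes in the results below was not tested. Epcam, Krt8, Krt18, Ptprc, Cd3e, Alb, Ttr and Apoa1 exceeded that median on 0 of 15 arrays. Cdh1 and Cd14 exceeded it on all 15, and Cd14, a monocyte marker, rose in epsilon (7313 ± 535 units, against 2959 ± 618 in vector; adjusted p = 1.11e-04). The part of Cd14 in the results below was not tested. The ratio of the 3′ to the 5′ control probe sets of Gapdh, a measure of RNA integrity, ranged from 0.908 to 0.982 in alpha, 0.891 to 0.945 in beta, 0.903 to 0.931 in delta and 0.966 to 0.986 in epsilon, against 0.897 to 0.937 in vector, so that all epsilon arrays lay above all vector arrays. That of actin ranged from 1.02 to 1.44 on the C/EBP arrays and from 1.11 to 1.41 in vector, with overlap between epsilon and vector. Their part in the results was not tested.

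Every member averaged lower in each of the 4 C/EBP groups than in vector, but the falls were small and only some passed the test. Slc30a1 fell in alpha, beta and epsilon, Mt2 fell in alpha and beta, and Mt3 fell in alpha and epsilon. Mt1 and Mtf1 passed in none of the 4 comparisons in the reported fit, which leaves the replicate number out, and no member passed in delta. With the replicate number as a block, Mt1 passed in alpha, beta and epsilon (limma adjusted p = 0.0191, 0.00478 and 0.0273), and so did Mt2 in epsilon (0.00425). The largest fall was 2.03-fold, for Slc30a1 in beta. Each array reads a whole culture, so less RNA per cell and fewer cells that express a gene cannot be told apart.

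Mt2 is a main zinc-buffering metallothionein of most tissues. Scaled to a common array median, its probe set read 83020, 96190 and 124200 units in alpha, 81400, 96130 and 85560 in beta, 133100, 126900 and 131900 in delta and 97110, 119900 and 124900 in epsilon, against 136200, 168900 and 161000 in vector. All 12 C/EBP arrays were below all 3 vector arrays. Mt2 fell 1.77-fold in beta (log2 -0.82, SE 0.16, adjusted p = 0.00295), where the call was kept in each alternative run and without each array. It fell 1.55-fold in alpha (log2 -0.63, SE 0.16, adjusted p = 0.0106), a call lost without alpha replicate 1 (adjusted p = 0.0554) and with no filter (0.0646). In epsilon it read -0.45 and missed the threshold (adjusted p = 0.0617). It passed there without alpha replicate 1 or 3 (0.0450 and 0.0390) and with the replicate number as a block (0.00425). It also passed with arrays not scaled further (0.00830) and with scaling by the median ratio to the mean array (0.0115). In delta it read -0.24, with a 95% interval of the difference from -0.58 to 0.09.

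Mt1, the neighbouring metallothionein gene with a like role, was more variable between arrays. It read 92940, 132900 and 135100 units in alpha, 98150, 131700 and 98880 in beta, 131300, 134700 and 123900 in delta and 93290, 137900 and 139300 in epsilon, against 135500, 165900 and 173000 in vector. The vector array numbered 1 overlapped with the epsilon arrays, and lay just above the highest alpha, beta and delta arrays. The largest difference was in beta, at -0.54 on the log2 scale with a 95% interval from -0.93 to -0.14, and it did not pass (unadjusted p = 0.0117, adjusted p = 0.0900). It passed there without epsilon replicate 1 (adjusted p = 0.0480), without the arrays numbered 1 (0.0295), with array weights (0.00482) and under each of the other scalings (0.0256 to 0.0390). The differences were -0.41 in alpha, -0.28 in delta and -0.37 in epsilon, with adjusted p-values of 0.184, 0.938 and 0.201. With the replicate number as a block, those in alpha and epsilon passed (0.0191 and 0.0273).

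**Figure D1:**
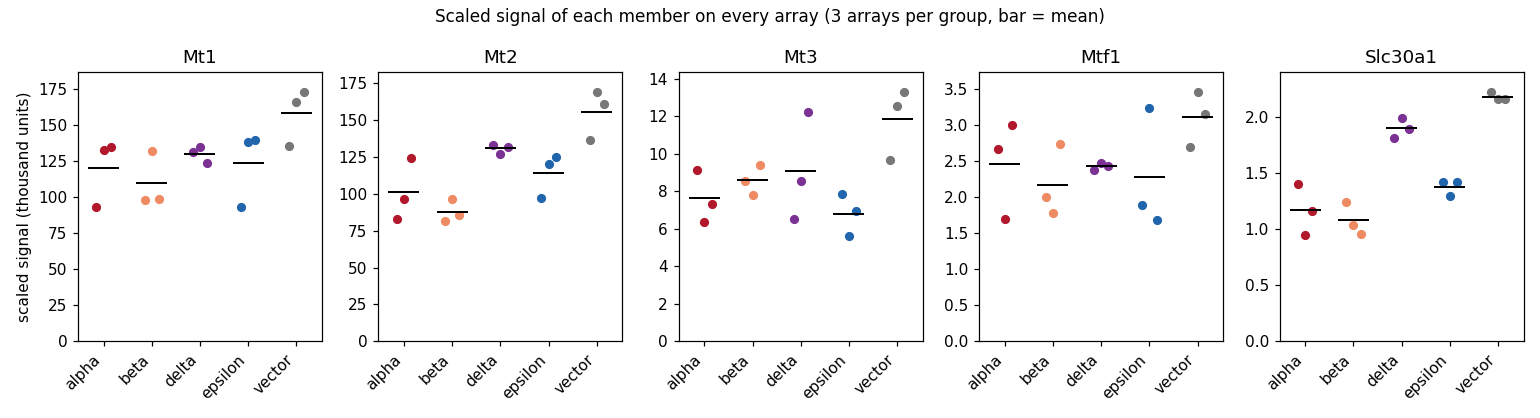
Scaled signal (vertical axis, linear, from 0, in units of 1000) of each member on the 3 arrays of each group (points), with the group mean as a bar. The vector arrays of Mt2 and Slc30a1 lie above every C/EBP array, and the delta arrays of Slc30a1 lie between vector and the other C/EBP groups.

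Both probe sets sat at the top of the measured range. Mt1 ranked from 3 to 16 and Mt2 from 3 to 40 among the 12488 probe sets of an array. The top of the range moved with the groups: the 100 brightest tested probe sets had a median log2 difference from vector of -0.14 in alpha, -0.12 in beta, -0.10 in delta and -0.16 in epsilon, where all tested probe sets had medians of 0.00, 0.04, 0.01 and 0.08. The part of this shift in the Mt1 and Mt2 differences was not tested directly. Under quantile normalization, which gives all arrays the same distribution, Mt2 read -0.46 in alpha and -0.64 in beta and was called in both (adjusted p = 9.06e-04 and 1.03e-04). Its values in delta and epsilon became -0.15 and -0.23, and neither was called. The Mt1 differences were reduced to -0.14 in alpha, -0.25 in beta, -0.15 in delta and -0.10 in epsilon, of which that in beta was called (adjusted p = 0.0390).

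**Figure D2:**
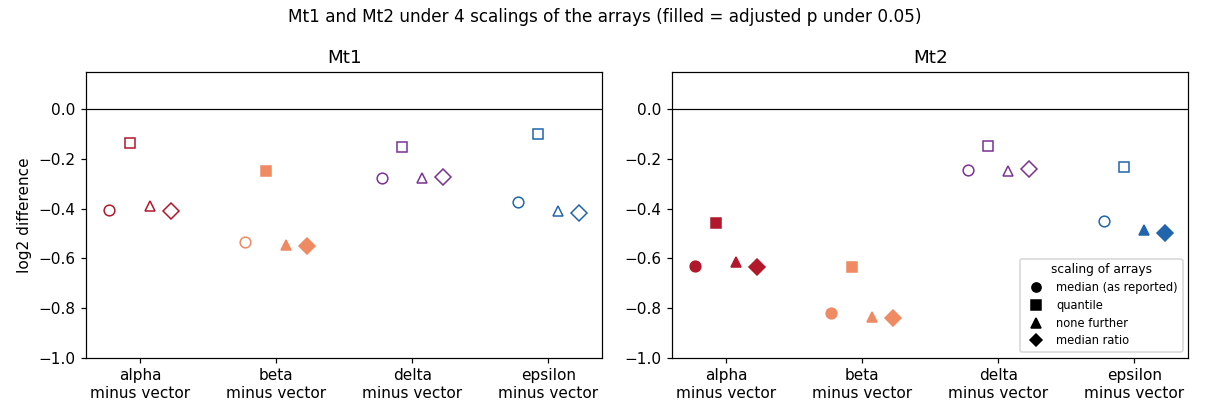
Log2 difference of Mt1 and Mt2 from vector (vertical axis) in each C/EBP group (horizontal axis) under 4 scalings of the arrays (marker shapes), filled where the adjusted p was under 0.05. Every difference is below 0, and quantile normalization gives the smallest, between -0.10 and -0.25 for Mt1 and between -0.15 and -0.64 for Mt2.

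Mt3 read 9155, 6353 and 7342 units in alpha, 8557, 7798 and 9407 in beta, 6529, 8524 and 12240 in delta and 7833, 5613 and 6944 in epsilon, against 9677, 12570 and 13300 in vector. The alpha, beta and epsilon arrays lay below all vector arrays, and 1 delta array overlapped with vector. Mt3 fell 1.74-fold in epsilon (log2 -0.80, SE 0.21, adjusted p = 0.0138). That call was lost without vector replicate 3 (adjusted p = 0.0666), without epsilon replicate 2 (0.0644) and with no filter (0.0535). The fall in alpha, 1.56-fold, was close to the threshold (log2 -0.64, SE 0.21, adjusted p = 0.0483). It was not made in 9 of the 15 leave-one-out fits, namely without vector replicate 2 or 3 (adjusted p = 0.120 and 0.169), alpha replicate 2 or 3 (0.182 and 0.124), beta replicate 1, 2 or 3 (0.0584, 0.0525 and 0.0607), delta replicate 2 (0.0590) and epsilon replicate 3 (0.0621), and in 5 of 12 other alternatives (highest adjusted p = 0.140). In beta and delta Mt3 read -0.46 and -0.42 and did not pass (0.198 and 0.819). Mt3 is known as a gene of neurons and astrocytes, so neural markers were read beside it. Snap25 was at the floor of 189.7 units on all 15 arrays, Gfap, Syp and Mbp exceeded 1092 units on 2, 6 and 4 arrays, and the summed level of these 4 ranged from 1826 to 2967 units in alpha, 2895 to 3281 in beta, 3248 to 3494 in delta and 1937 to 3141 in epsilon, against 3149 to 3687 in vector. In alpha and epsilon, where Mt3 was called lower, every array had a lower sum than every vector array. Syp and Mbp passed the filter and were called in none of the 4 groups (Syp read -0.54 in alpha and -0.80 in epsilon, adjusted p = 0.341 and 0.114). Their part in the Mt3 differences was not tested.

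Mtf1 encodes the factor that reads zinc and switches on the other genes. It read 2665, 1701 and 3005 units in alpha, 2011, 1778 and 2735 in beta, 2384, 2474 and 2439 in delta and 1899, 3242 and 1687 in epsilon, against 2706, 3465 and 3155 in vector. Its delta arrays lay below all vector arrays, and the other groups overlapped with vector. The differences from vector were -0.37 in alpha, -0.53 in beta, -0.35 in delta and -0.50 in epsilon, each with SE 0.25, and none passed (adjusted p = 0.382, 0.204, 0.938 and 0.182). The 95% interval in beta ran from -1.05 to -0.01, and that in alpha from -0.89 to 0.15. In epsilon it passed without epsilon replicate 2 (log2 -0.79, adjusted p = 0.0341) and with array weights (0.0418).

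Slc30a1 encodes the exporter that carries zinc out of the cell across the plasma membrane. It read 1403, 948.4 and 1163 units in alpha, 1245, 1038 and 955.5 in beta, 1814, 1990 and 1893 in delta and 1423, 1294 and 1418 in epsilon, against 2226, 2164 and 2159 in vector. The groups separated without overlap into vector above delta and delta above the rest, while alpha, beta and epsilon overlapped in part. Slc30a1 fell 2.03-fold in beta (log2 -1.02, SE 0.18, adjusted p = 0.00137) and 1.89-fold in alpha (log2 -0.92, SE 0.18, adjusted p = 0.00184), and both calls were kept in each alternative run and without each array. It fell 1.59-fold in epsilon (log2 -0.67, SE 0.18, adjusted p = 0.0171). The epsilon call was lost without vector replicate 1 or 3 (adjusted p = 0.0574 and 0.0508), without epsilon replicate 2 (0.0567) and when the arrays numbered 1 were dropped (0.102). In delta it read -0.20, with a 95% interval from -0.58 to 0.18. The signal was close to the pooled median of 1092 units and was below it on 3 of the 15 arrays. Detection calls were not used here.

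**Figure D3:**
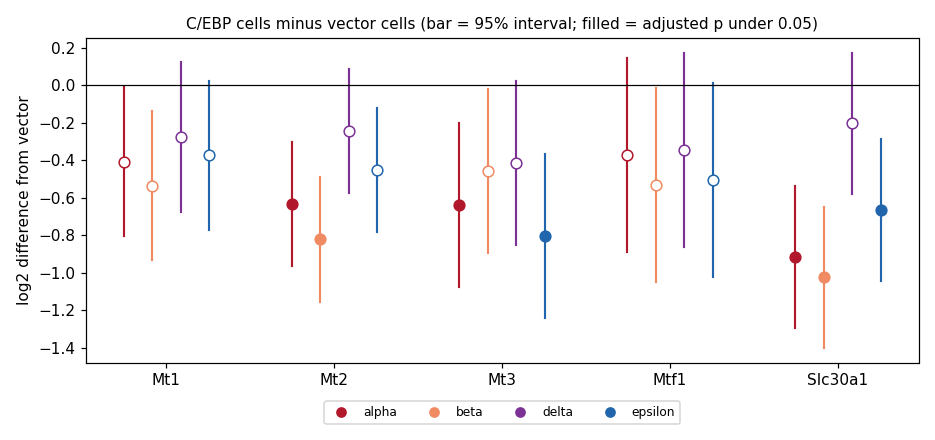
Log2 difference from vector (vertical axis) of the 5 members in each C/EBP group, with 95% intervals, filled where the adjusted p was under 0.05. All 20 differences are below 0, and 7 passed.

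By comparison, the members called lower were 3 of 5 in alpha, where 7.15% of all tested probe sets were called lower. They were 2 of 5 in beta, where the share was 4.18%, 2 of 5 in epsilon, where it was 6.91%, and 0 of 5 in delta, where it was 0%. In delta no member reached an unadjusted p under 0.05 in limma either, and 144 probe sets in all did so on the lower side. None was called higher in any group, where the shares of all tested probe sets called higher were 7.17% in alpha, 5.13% in beta, 0.359% in delta and 9.38% in epsilon. The arrays did not overlap with vector, on the lower side, for 4 of 5 members in alpha (13.7% of all tested), 4 in beta (11.7%), 4 in delta (4.77%) and 3 in epsilon (11.8%). The median log2 difference of the members was -0.63 in alpha, -0.54 in beta, -0.28 in delta and -0.50 in epsilon. All 4 comparisons use the same 3 vector arrays, so a vector array with a high value makes all 4 differences more negative.

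The C/EBP groups were also compared with each other, which uses no vector array. The F-test over the 4 C/EBPs called 1 of the 5 members, Slc30a1 (adjusted p = 0.0197), where 10.2% of all tested probe sets were called. Its call was lost without delta replicate 1, 2 or 3 (adjusted p = 0.0588, 0.0977 and 0.0829) and when the arrays numbered 1 were dropped (0.0789). In the 6 pairs, Slc30a1 was 1.64-fold higher in delta than in alpha (1899 ± 88.3 units, against 1172 ± 228; log2 0.71, adjusted p = 0.0184) and 1.77-fold higher in delta than in beta (1899 ± 88.3 units, against 1080 ± 149; log2 0.82, adjusted p = 0.0115). The first was lost without alpha replicate 2 or 3 (0.0841 and 0.0509), without delta replicate 2 or 3 (0.0765 and 0.0616) and when the arrays numbered 1 were dropped (0.0511). The second was lost without beta replicate 3 (0.0626), without delta replicate 2 (0.0578) and when the arrays numbered 1 were dropped (0.0694). From low to high its order ran from beta through alpha, epsilon (1378 ± 73.4 units) and delta to vector (2183 ± 37.3), and no pair of neighbours in that order passed the test. Between beta and alpha the difference was -0.11, with a 95% interval from -0.49 to 0.27.

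Mt2 had the same order of group means. It averaged 87700 ± 7600 units in beta, 101100 ± 21000 in alpha, 114000 ± 14800 in epsilon and 130600 ± 3310 in delta, against 155300 ± 17100 in vector, and no neighbours in that order passed. The F-test over the 4 C/EBPs did not call Mt2 (adjusted p = 0.0901), although it passed under each of the other scalings (0.00201 to 0.0213). It also passed with array weights (0.00232), with the replicate number as a block (0.00387) and without alpha replicate 3 or epsilon replicate 1 (0.0370 and 0.0472). Mt2 was higher in delta than in beta (log2 0.58, SE 0.16, adjusted p = 0.0429). It was not made in 9 of the 15 leave-one-out fits, those without vector replicate 3 (adjusted p = 0.0615), alpha replicate 2 (0.0596), beta replicate 1, 2 or 3 (0.118, 0.0635 and 0.135), delta replicate 1, 2 or 3 (0.128, 0.106 and 0.135) and epsilon replicate 3 (0.0558). It was also lost with the floor at the 40th percentile (0.0514), with no filter (0.166), with no trend (0.0591) and when the arrays numbered 1 were dropped (0.0761). Calls gained were Mt2 in delta over alpha under quantile normalization (0.0216), Mt2 in epsilon over beta under quantile normalization and with array weights (0.00936 and 0.0169), and Slc30a1 in epsilon over beta with array weights (0.0393). With the replicate number as a block, Mt2 also gained a call in delta over alpha (0.0170) and in epsilon over beta (0.0483). Mt1, Mt3 and Mtf1 were called in none of the 6 pairs. The share of all tested probe sets called in either direction was 8.40% in delta against alpha, 4.77% in delta against beta, 8.21% in epsilon against delta, 2.86% in beta against alpha, 2.34% in epsilon against beta and 1.31% in epsilon against alpha. The share called higher was 5.06% in delta over alpha, where 1 member was, and 2.66% in delta over beta, where 2 members were. Over all 5 groups the F-test called Slc30a1 (adjusted p = 0.00149) and Mt2 (0.00795), where 16.5% of all tested probe sets were called. Mt2 was not called with no filter (0.0748). Mt3 had an adjusted p of 0.0791 and passed without delta replicate 1 or 3 (0.0327 and 0.0349) and when the arrays numbered 1 were dropped (0.0149). It also passed with array weights (0.0393) and with the replicate number as a block (0.0301). Mt1 had an adjusted p of 0.280 and passed with array weights (0.0253) and with the replicate number as a block (0.0201).

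The genes whose log2 values followed each member most closely over the 15 arrays are given as a description, since all values share the same arrays, scaling and groups. Slc30a1 was followed by Wdr81 (Pearson r = 0.95), Ndrg1 (0.94), P4ha2 (0.94), Stx3 (0.94) and Gdnf (0.93). Mt2 was followed by Rce1 (0.96), Rela (0.94), St13 (0.93), Trip6 (0.92) and Saraf (0.91). Rela encodes a subunit of NF-kappaB. Mt1 was followed by Tpt1, Ybx1, Prpf6, Rplp0 and Fth1, with r from 0.90 to 0.92. Tpt1 and Rplp0 belong to the translation machinery or its regulation, and Fth1 encodes the heavy chain of ferritin. The closest genes for Mt3 and Mtf1 reached r of 0.80 and 0.78, for Arpc5 and Tcap.

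Among other genes that MTF-1 or metals are known to induce in mouse, 9 were listed, 7 were on the array and 4 were tested. Ndrg1, a stress-responsive gene of growth arrest and hypoxia, and Csrp1, a LIM-domain protein, fell in alpha, beta and epsilon, while Gclc and Fn1 passed in none. Among all tested probe sets, 7.15% were called lower in alpha, 4.18% in beta and 6.91% in epsilon. Ndrg1 read 8508, 5091 and 6213 units in alpha, 6397, 4645 and 6076 in beta, 15720, 16700 and 15440 in delta and 12220, 7977 and 8237 in epsilon, against 16130, 15150 and 13370 in vector. The delta arrays of Ndrg1 overlapped with vector, and all other C/EBP arrays lay below both. Ndrg1 changed by -1.20 in alpha, -1.39 in beta and -0.68 in epsilon on the log2 scale (adjusted p = 3.17e-04, 2.08e-04 and 0.0231), and its other probe set by -1.16, -1.40 and -0.60. The epsilon call was lost without vector replicate 1 or 2 (adjusted p = 0.0804 and 0.0511), without epsilon replicate 2 or 3 (0.0942 and 0.0963) and with no filter (0.0717). Csrp1 changed by -1.01 in alpha, -0.73 in beta and -0.86 in epsilon (adjusted p = 6.65e-04, 0.0145 and 0.00289), and in beta the call was lost without vector replicate 2 or beta replicate 1 (0.0579 and 0.0694). Its beta call was also lost when the arrays numbered 1 were dropped (0.0617). The median log2 difference of these 4 genes was -0.68 in alpha, -0.50 in beta, 0.01 in delta and -0.57 in epsilon.

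Some other zinc transporters passed the test. In epsilon 1 of 4 other tested genes of the SLC30 family was called higher, where 9.38% of all tested probe sets were. Of 7 tested importers, 2 were called lower in alpha, 1 in beta, 0 in delta and 1 in epsilon. The shares of all tested probe sets called lower were 7.15%, 4.18%, 0% and 6.91%. Of 9 other genes of the SLC30 family of zinc transporters, 4 were tested. None fell, and 1, Slc30a9, rose, in epsilon (3475 ± 63.7 units, against 2506 ± 177 in vector; log2 0.47, adjusted p = 0.0255). That call was lost in 7 of 27 alternative fits. Among them were those without vector replicate 3 or epsilon replicate 1, 2 or 3 (0.101, 0.0554, 0.0671 and 0.0575). The 4 had median log2 differences of 0.13 in alpha, 0.11 in beta, -0.08 in delta and 0.17 in epsilon. Of 14 importers of the SLC39 family, which bring zinc into the cytosol, 7 were tested and 2 fell in at least 1 group. Slc39a6 fell in alpha (3668 ± 369 units, against 6467 ± 2050 in vector) and epsilon (3665 ± 1030), with log2 differences of -0.78 and -0.81 (adjusted p = 0.0178 and 0.0136). Without vector replicate 2 neither was called (0.0893 and 0.0584), nor was alpha without alpha replicate 2 (0.0752) or epsilon without epsilon replicate 3 (0.0737). Over 27 alternative fits, the Slc39a6 call was lost in 3 in alpha and 4 in epsilon. Slc39a4 fell in alpha and beta (log2 -0.62 and -0.66, adjusted p = 0.0331 and 0.0335). Without vector replicate 2 these became -0.43 and -0.47 (adjusted p = 0.146 and 0.124). The alpha call was also lost without alpha replicate 1 or 3 (0.0917 and 0.104), and the beta call without beta replicate 2 or 3 (0.152 and 0.0638). Each Slc39a4 call was lost in 6 of 27 alternative fits. Its other probe set was too dim to be tested and read -0.06 in alpha and 0.05 in beta. The median of the 7 importers was -0.04 in alpha, -0.05 in beta, -0.09 in delta and 0.05 in epsilon.

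**Figure D4:**
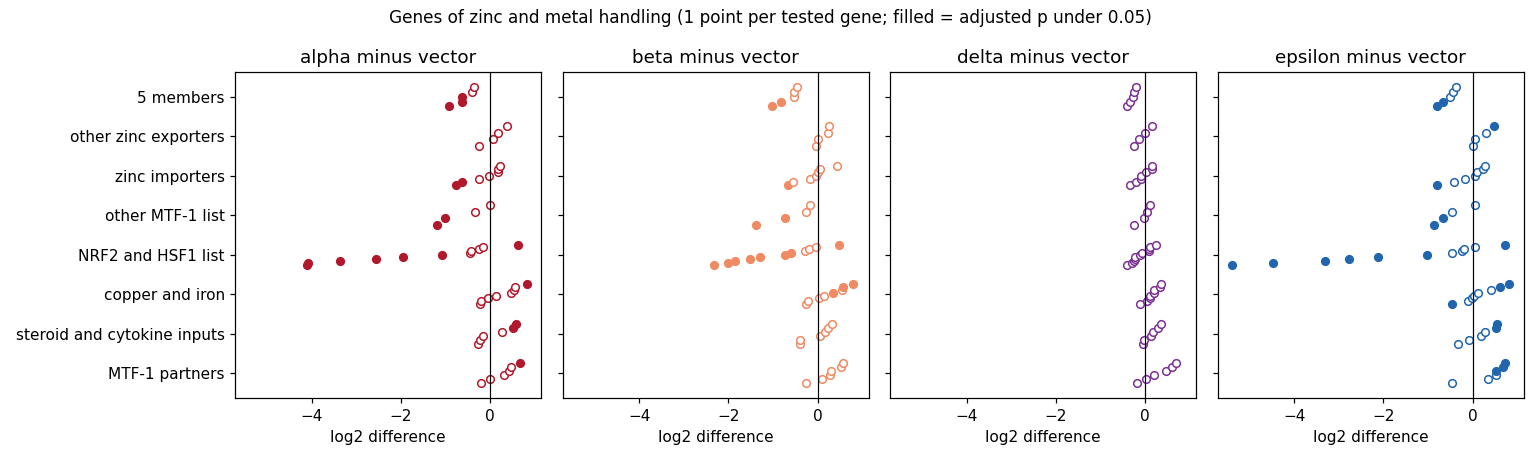
Log2 difference from vector (horizontal axis) of each tested gene of zinc and metal handling, by list (rows) and C/EBP group (panels), filled where the adjusted p was under 0.05. The largest falls are in the NRF2 and HSF1 list in alpha, beta and epsilon, down to -5.40 for Hspa1a in epsilon, where its mean was below the pooled median signal. No gene is filled in the delta panel.

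Zinc also reaches genes through NRF2 and the heat shock factor HSF1. Of 12 such genes 11 were tested, and 6 fell and 1 rose in alpha, 7 fell and 1 rose in beta, 6 fell and 1 rose in epsilon, and none passed in delta. The share of all tested probe sets called lower was 7.15% in alpha, 4.18% in beta, 0% in delta and 6.91% in epsilon. In alpha, beta and epsilon Hmox1, Srxn1 and the heat shock genes Hspa1a, Hspa1b, Dnajb1 and Hsph1 fell. Gclm fell in beta alone, and Nqo1, Txnrd1 and Fth1 passed in none. The medians of these 11 genes were -1.09 in alpha, -0.73 in beta, -0.12 in delta and -1.03 in epsilon, each the value of Srxn1. The other tested probe set of Srxn1 read 0.02 in alpha, 0.12 in beta, 0.25 in delta and 0.50 in epsilon and was not called. Hmox1, which encodes heme oxygenase, read 17700, 14450 and 19340 units in alpha, 33650, 19600 and 31330 in beta, 91210, 72910 and 90780 in delta and 14510, 12970 and 16230 in epsilon, against 99000, 102200 and 97960 in vector. Its delta arrays were below the vector arrays and far above the other C/EBP arrays. Its log2 differences were -2.55 in alpha, -1.86 in beta and -2.78 in epsilon (adjusted p = 4.67e-08, 6.57e-06 and 1.61e-08), with -0.24 in delta (0.940). The Hsp70 genes Hspa1a and Hspa1b, near-identical copies whose probe sets may share signal, fell most in epsilon, with log2 differences of -5.40 and -4.48. Hspa1a averaged 749.8 ± 454 units in epsilon, below the pooled median of 1092 units, so the size of its fall is uncertain. It ran from -5.85 to -4.88 without 1 array at a time. The gene that rose was Gsr, glutathione reductase, by 0.62 in alpha, 0.48 in beta and 0.73 in epsilon (adjusted p = 0.00382, 0.0303 and 0.00113). Of 8 partners of MTF-1 or of its response, 6 were tested. In epsilon 3 rose, namely Nfe2l2 (NRF2; log2 0.69, adjusted p = 0.00408), Hif1a (0.52, 0.0132) and the coactivator gene Crebbp (0.72, 0.0484), and Nfe2l2 also rose in alpha (0.66, 0.00532). The Hif1a call was lost in 2 of 27 alternative fits, without epsilon replicate 2 (0.0524) and with only epsilon and vector in the fit (0.0510). Without the arrays numbered 1, Nfe2l2 was called in neither alpha (0.121) nor epsilon (0.0522). Crebbp was lost in 17 of 27 alternative fits, and its value moved to 0.39 without epsilon replicate 2 (adjusted p = 0.229). None of the 6 was called in beta or delta. Among all tested probe sets, 7.17% were called higher in alpha, 5.13% in beta, 0.359% in delta and 9.38% in epsilon.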

How the data were processed

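For each probe set of the MG_74Av2 array the authors deposited 1 intensity, on a linear scale. Per the labels, the authors scanned the arrays and analysed the images with Microarray Suite 5.0. All 15 arrays had a 2% trimmed mean between 2501.12 and 2501.39, so the arrays had been scaled before they were deposited. Precision is limited by there being 3 arrays a group.

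The 66 control probe sets were dropped from 12488. Arrays were brought to a common median (the mean of their 15 medians), then floored at 189.7 units, the 20th percentile over all arrays, and converted to log2. Probe sets above the pooled median (1092 units) on at least 3 arrays were tested. Symbols came from the array annotation (10833 probe sets with 1 gene, 396 with several, 1193 with none). Where a listed gene had several tested probe sets, the brightest was used.

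The 5 groups were fitted together with limma 3.58.1 (lmFit, then eBayes with a trend) under R 4.3.3, two-sided, with Benjamini-Hochberg over 6963 probe sets within each contrast and a threshold of 0.05. SE and 95% intervals are those of the fit, and signals are given ± SD over 3 arrays. The fit was tested on simulated data with independent noise and changes in alpha only. These lacked the spread that arrays of the same number share, so they cannot judge the p-values under it. The labels speak of triplicate clones but do not settle whether the arrays of a group stem from 1 transfection or several, so p-values measure the spread between these arrays, which may be technical.

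The text names the 5 members, up to 4 genes per list with the largest difference among those that passed, Hmox1, and for each member the 5 genes of highest Pearson correlation over 15 arrays. Gsr, Srxn1, Hsph1, Gclm, Nqo1, Txnrd1, Fth1 as a listed gene, Gclc, Fn1 and the markers were named after their values were seen. Members, lists and tests were chosen with earlier results of these data known. Alternatives were other scalings, floors, filters and variance models, array weights, a replicate block, fits restricted to the compared groups, the univariate F-test the labels name, and leaving out each array or the 5 arrays numbered 1 (chosen after these data had been seen).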

Additional observations from a re-analysis of the deposited data

Results flagged for a closer look

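In the reported fit, Slc30a1 was called as different among the 4 C/EBP groups, but this call depended on single arrays. The F-test over alpha, beta, delta and epsilon gave an adjusted p of 0.0197 (limma), with log2 differences from vector of -0.92 in alpha, -1.02 in beta, -0.20 in delta and -0.67 in epsilon. Removing any single delta array undid the call, with adjusted p between 0.0588 and 0.0977. Dropping the first array of every group undid it too (0.0789). Of all tested probe sets, 10.2% were called by the same F-test. All 3 delta arrays lay above all arrays of the other 3 C/EBP groups. No pair among alpha, beta and epsilon passed (adjusted p = 0.928 for beta against alpha, 0.717 for epsilon against alpha and 0.384 for epsilon against beta), nor did epsilon against delta (0.127).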

How the results depend on the processing

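All 20 differences of the members from vector stayed below 0 in each of the 27 alternative fits run for each. Of 1117 recomputed values for the members, 1031 kept their direction and their side of the threshold, 49 lost a call, 36 gained one and 1 changed sign. That one was Slc30a1 in beta against alpha, which ranged from -0.252 to 0.031 without 1 array at a time, was above 0 without alpha replicate 1 and was not called. The number of members called was 3 in alpha, 2 in beta, 0 in delta and 2 in epsilon against vector, 2 over the 5 groups and 1 over the 4 C/EBPs, with 3 calls in the pairs. With no filter, where more probe sets were tested, it was 1 in alpha, 1 in epsilon and 1 over the 5 groups. Quantile normalization gave 2 over the 4 C/EBPs and 5 in the pairs, and no further scaling and median ratio scaling each gave 2 over the 4 C/EBPs. Array weights gave 4 over the 5 groups, 2 over the 4 C/EBPs and 6 in the pairs. Without the arrays numbered 1, with fewer arrays, it was 1 in epsilon, 0 over the 4 C/EBPs and 0 in the pairs. Without 1 array at a time it ranged from 2 to 3 in alpha and in beta, stayed at 0 in delta, and ranged from 0 to 3 in epsilon, 2 to 3 over the 5 groups, 0 to 2 over the 4 C/EBPs and 0 to 3 in the pairs. The cause of these shifts was not tested. With the replicate number as a block, it was 4 in alpha, 3 in beta, 0 in delta, 4 in epsilon, 4 over the 5 groups, 2 over the 4 C/EBPs and 5 in the pairs. The calls gained against vector were Mt1 in alpha, beta and epsilon (adjusted p = 0.0191, 0.00478 and 0.0273) and Mt2 in epsilon (0.00425). The numbers were not taken as pairs, since deviations of same-numbered arrays did not correlate for every number. Those numbered 1 correlated at 0.225 to 0.439, those numbered 2 at 0.019 to 0.428 and those numbered 3 at -0.069 to 0.124. The median was 0.25 for same-numbered arrays and -0.09 for others (-0.428 to 0.245), and 13 of 15 arrays correlated best with one of their own number. Arrays of the same number thus shared part of their spread, which the reported fit does not model, and the Mt1 calls depend on that choice. Over all probe sets, the calls against vector were 997 in alpha, 648 in beta, 25 in delta and 1134 in epsilon, and without the arrays numbered 1 they were 654, 339, 11 and 693. With array weights they were 1576 in beta, 74 in delta and 1730 in epsilon, and with the replicate block 1099 in beta and 44 in delta. Delta gave 39 under quantile normalization, and 15 with only delta and vector in the fit, where epsilon with vector gave 690. Leaving out 1 array lowered beta to 372 and delta to 13 at the lowest, and epsilon to 750. The share of higher calls in epsilon was 57.6%, and 51.1% under median ratio scaling. Signals near the top of the array range limit Mt1 and Mt2, and signals near the array median limit Slc30a1.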

Other observations

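Some genes of copper and iron handling rose. Of 8 tested, Tfrc, the transferrin receptor that brings iron into the cell, rose in alpha (14010 ± 1390 units), beta (13570 ± 1040) and epsilon (13920 ± 1600), against 7976 ± 1570 in vector, with log2 differences of 0.83, 0.78 and 0.82 (limma adjusted p = 7.78e-04, 0.00236 and 0.00101). These 3 calls were kept in all 27 alternative fits. Ireb2, an iron-sensing RNA-binding protein, rose in beta and epsilon (0.57 and 0.61), calls lost in 12 and 6 of 27 fits, and Cox17, a copper chaperone, rose in beta (0.34), a call lost in 17. Slc31a1, the copper importer, fell in epsilon (log2 -0.45, adjusted p = 0.0371), a call lost in 8 of 27 fits, and its other probe set read -0.22. No gene of this list passed in delta. Among all tested probe sets, 7.17% were called higher in alpha, 5.13% in beta and 9.38% in epsilon, and 6.91% were called lower in epsilon. Among 6 tested genes of the steroid and cytokine inputs to metallothionein genes, Stat3 rose in alpha and epsilon (0.57 and 0.55, adjusted p = 0.0104 and 0.0136), as did Il6st, the shared receptor subunit of interleukin 6 type cytokines (0.50 and 0.52, adjusted p = 0.00726 and 0.00639). The shares of higher calls given above, 7.17% in alpha and 9.38% in epsilon, apply here too. The Stat3 calls were lost in 1 of 27 fits in alpha and 5 in epsilon, and the Il6st calls in 1 and 2. The second Stat3 probe set read 0.97 and 1.10, and the second Il6st probe set, which was not called, read 0.49 and 0.32.

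The arrays numbered 1 were at the ends of their groups for several members. Mt1 was lowest on the array numbered 1 in 4 of 5 groups, and so was Mt2. Slc30a1 was highest on it in 4 of 5 groups. In alpha, for example, the array numbered 1 had 92940 units of Mt1 and 1403 of Slc30a1, and the other 2 arrays had 132900 and 135100 units of Mt1 and 948.4 and 1163 of Slc30a1.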
